A study of Mus musculus with 2 samples.

Results

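The respiratory chain genes of the nucleus and of the mitochondrion were followed in splenic dendritic cells (DCs) of mice with and without MHC class II. The members were every gene of the deposited feature list whose symbol starts with Nduf, Sdh, Uqcr, Cox4 to Cox8, Atp5 or mt-, with Cox6a2 and pseudogene symbols left out. This rule, which uses names and no measured value, gave 109 of 32285 genes, of which 96 are nuclear and 13 are mitochondrial. The nuclear genes belong to complex I (46 genes), complex II (8), complex III (8), complex IV (17) and complex V (17). The mitochondrial genes belong to complex I (7 genes), complex III (1), complex IV (3) and complex V (2). The rule also takes in the assembly factors Ndufaf1 to Ndufaf8 and Sdhaf1 to Sdhaf4, which help build complexes I and II but are no subunits of them, and Ndufa4, which is now placed in complex IV but is counted with complex I here by its symbol.

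The respiratory chain passes electrons from NADH and succinate through complexes I to IV to oxygen, and the proton gradient that this builds drives ATP synthesis in complex V. Most subunits are encoded in the nucleus, made in the cytosol and imported, whereas a small set is encoded on mitochondrial DNA, transcribed as long polycistronic RNAs from both strands and cut at the tRNAs between the genes. Complex II holds no mitochondrial subunit, so it depends on nuclear genes alone. DCs are known to lean more on glycolysis once they mature, and resting and plasmacytoid DCs to rely on respiration.

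Single-cell RNA-seq was performed on CD45.2+ CD11c+ cells sorted from spleens of naive 4-month-old female mice. The WT library (H2-Aa +/+) and the H2-Aa cit/cit library, also called the mutant here, each came from 3 pooled mice, and cit is a chemically induced germline allele that removes the MHC-II alpha chain in every cell. With 1 library per genotype there is no replicate, so no test was run, and every interval given is a 95% interval that covers counting error only, not the spread between mice. Each value is a number of unique molecular identifiers (UMIs), which mark single captured RNA molecules at their 3' end, summed over the cells of a library or class.

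The WT library held 7814 cells with 51020804 UMIs (median 5492 per cell), and the H2-Aa cit/cit library held 11525 cells with 72652201 UMIs (median 5633 per cell). H2-Aa stood at 5410 CPM (the UMIs of a gene scaled to a fixed total per library or class) in WT and at 66.2 CPM in the mutant, a log2 ratio of -6.35 (interval -6.39 to -6.31), in the direction of the labels. The libraries shared 31 cell barcodes. Cells with under 10% of their UMIs in cytosolic ribosomal protein genes made up 45.7% of the WT library and 30.7% of the H2-Aa cit/cit library. This difference in make-up touches most of the values that follow, so they are given over all cells and again over the cells with at least 10% ribosomal protein UMIs.

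Cells were placed in classes by counting detected markers, none of which is a respiratory chain gene. The 6 classes used here, each named for the markers it resembles, held 5096 cells of WT and 7986 of the mutant. They were resting cDC2-like cells (2421 and 5594 cells), resting cDC1-like cells (467 and 536), mature CCR7-like DCs (1731 and 1071), plasmacytoid DC-like (pDC-like) cells (102 and 124), proliferating cells (242 and 492) and monocyte-like cells (133 and 169). In both libraries each class had 3 to 7 of its own markers among the 10 genes that led it and at most 1 of another class. The cells had been selected on these same markers, so that count was favoured in advance and is no separate support for the names. The neutrophil-lineage gene Prtn3 led the proliferating cells in the mutant together with cell cycle genes, and Cox6a2 was among the 10 leading genes of the pDC-like cells in WT. No member was among the 100 leading genes of any class.

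The 13 mitochondrial genes took more UMIs than the 96 nuclear genes in both libraries. The nuclear genes took 1.17% of UMIs in WT and 1.36% in the mutant, and the mitochondrial genes took 1.66% and 1.76%. The mitochondrial to nuclear ratio was therefore 1.42 in WT and 1.29 in the mutant. The most counted mitochondrial genes were mt-Co1, mt-Co2 and mt-Co3, the catalytic core of complex IV, with 3233, 2700 and 3146 CPM in WT and 3347, 2967 and 3565 CPM in the mutant. Among the nuclear genes of complex IV, Cox4i1 was counted at 510 and 569 CPM, Cox8a at 404 and 491 CPM and Cox7c at 372 and 409 CPM. For complex V, Atp5e and Atp5l, a small subunit of the ATP synthase head and a subunit of its membrane part, were counted at 462 and 486 CPM and at 390 and 451 CPM. Uqcrh, the hinge subunit of complex III, was at 374 and 394 CPM, and Uqcrb, another of its subunits, at 148 and 167 CPM. Ndufa4 was at 244 and 264 CPM, and Ndufa13, a complex I subunit, at 178 and 221 CPM. The complex II subunits Sdha, which carries the flavin, and Sdhb, which carries the iron-sulfur clusters, were at 95.4 and 93.4 CPM and at 69.5 and 85.6 CPM. These counts are per gene and not per length, so they are compared between cells and not between genes.

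Several members have isoforms that are restricted to other tissues, and these were nearly or wholly undetected. Cox4i2 had 5 UMIs in WT and 4 in the mutant, Cox7a1, a heart and muscle isoform, 37 and 33, Cox8b, another muscle isoform, 0 and 1, and Ndufa4l2, a hypoxia-induced relative of Ndufa4, 0 and 3. Cox8c and Cox7b2 had 0 UMIs in both libraries, with an upper limit of 0.072 CPM in WT and 0.051 CPM in the mutant. Cox6b2, known from testis, was counted, with 329 and 645 UMIs. In all, 85 of the 96 nuclear genes reached a mean of 20 CPM over both libraries, and the other 11 were these 7 genes and the assembly factors Ndufaf1, Ndufaf5, Ndufaf6 and Sdhaf3.

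A pair of mitochondrial genes overlaps its neighbour on the same strand, which bears on how far their counts can be read. The sequences (GENCODE vM21 transcripts, GRCm38, plus strand, with the overlap in capitals) are shown because reads that match both genes are by default not counted for either. mt-Atp8, a short subunit of complex V, lies at chrM:7766-7969, and its last 43 bases also belong to mt-Atp6 (chrM:7927-8607). mt-Nd4l, a subunit of complex I, lies at chrM:9877-10173, and its last 7 bases also belong to mt-Nd4 (chrM:10167-11544).
mt-Atp8: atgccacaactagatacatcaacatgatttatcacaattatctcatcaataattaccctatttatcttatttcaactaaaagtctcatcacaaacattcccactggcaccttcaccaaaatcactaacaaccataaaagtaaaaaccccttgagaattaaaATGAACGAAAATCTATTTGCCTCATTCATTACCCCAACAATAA
mt-Nd4l: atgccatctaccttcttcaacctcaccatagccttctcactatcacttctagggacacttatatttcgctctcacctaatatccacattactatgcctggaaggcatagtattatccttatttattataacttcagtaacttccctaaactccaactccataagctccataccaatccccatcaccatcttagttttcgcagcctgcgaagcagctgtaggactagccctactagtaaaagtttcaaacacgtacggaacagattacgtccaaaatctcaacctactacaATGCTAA
mt-Atp8 had 1353 UMIs in WT and 1700 in the mutant beside 132520 and 204313 for mt-Atp6, which in turn shares bases with mt-Co3, and mt-Nd4l had 4243 and 5510 beside 49653 and 68956 for mt-Nd4. mt-Atp8 had the fewest UMIs of these genes, and the part of the overlaps in the counts was not tested. mt-Nd6, the member encoded on the minus strand, had 1545 and 1910 UMIs. Among the nuclear members, 12 of 96 overlap a gene annotated under another symbol on their own strand, so that their reads may be divided. For Cox4i1, Ndufa13, Ndufb2, Ndufb8 and Ndufb9 that gene is protein-coding. Atp5md is also among the 12, with Usmg5 as the overlapping entry. Genes were told apart by symbol alone, and whether Usmg5 is the same gene as Atp5md was not checked.

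Promoters of nuclear respiratory genes are known to hold sites for NRF1, for ETS factors such as GABP and for YY1. RefSeq promoters (GRCm38.p6, 250 bases before to 50 after the start) were at hand for 79 of the 96 nuclear members. A gene was counted when any promoter listed for it matched. With both strands read, the NRF1 core GCGCATGC was in 12 of the 79 members (15.2%, against 3.05% of 27025 genes). The ETS core CCGGAAG was in 22 (27.8% against 9.93%) and the YY1 element AAGATGGCG in 8 (10.1% against 1.64%). None of these strings contains another. At least 1 of the 3 was in 35 members (44.3% against 13.6%), and TATAAA was in 9 (11.4% against 15.7%). A match is a description of the letters and not evidence of binding. Shown are promoters of genes that stand apart in the comparisons given later: Uqcr11 (chr10:80406772-80407071, minus strand), a small complex III subunit high in pDC-like cells, Sdhaf1 (chr7:30322326-30322625, minus strand), high in mature DCs, and Ndufs4 (chr13:114388045-114388344, minus strand), which was higher in cDC2-like cells with few ribosomal protein UMIs. Each is printed on the strand of its gene. Capitals mark the matches, an ETS core on this strand and an NRF1 core on the opposite strand in Uqcr11, an ETS core on the opposite strand in Sdhaf1 and a YY1 element on this strand in Ndufs4.
Uqcr11: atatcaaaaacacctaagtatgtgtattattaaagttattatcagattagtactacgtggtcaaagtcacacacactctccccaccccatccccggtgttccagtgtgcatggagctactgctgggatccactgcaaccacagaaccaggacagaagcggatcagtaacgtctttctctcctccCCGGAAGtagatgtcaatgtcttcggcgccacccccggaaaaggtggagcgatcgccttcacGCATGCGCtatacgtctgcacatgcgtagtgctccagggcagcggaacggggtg
Sdhaf1: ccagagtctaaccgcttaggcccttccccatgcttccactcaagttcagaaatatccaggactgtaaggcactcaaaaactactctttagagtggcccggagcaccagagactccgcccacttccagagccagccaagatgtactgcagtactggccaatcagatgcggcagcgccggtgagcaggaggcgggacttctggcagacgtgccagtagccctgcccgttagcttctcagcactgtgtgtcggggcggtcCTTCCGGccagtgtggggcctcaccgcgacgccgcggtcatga
Ndufs4: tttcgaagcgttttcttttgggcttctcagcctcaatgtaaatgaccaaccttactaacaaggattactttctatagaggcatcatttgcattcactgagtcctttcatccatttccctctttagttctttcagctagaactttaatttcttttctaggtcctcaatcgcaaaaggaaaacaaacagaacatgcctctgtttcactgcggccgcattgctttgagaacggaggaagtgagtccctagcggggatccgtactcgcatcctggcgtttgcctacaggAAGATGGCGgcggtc

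The nuclear and the mitochondrial genes ordered the cell classes differently. By nuclear share, proliferating cells (1.68% in WT, 1.58% in the mutant), cDC1-like cells (1.59% and 1.73%) and pDC-like cells (1.51% and 1.57%) took the top 3 places in both libraries. Mature CCR7-like DCs were lowest in both, at 0.808% and 0.955%. cDC2-like cells stood at 1.21% and 1.35%, and monocyte-like cells at 1.32% and 1.29%, so that these classes changed places between the libraries. By mitochondrial share, pDC-like cells were highest by a wide margin, at 2.77% in WT (interval 2.74 to 2.80) and 2.82% in the mutant (interval 2.79 to 2.86). The other 5 classes lay at or below 1.83%. Neighbours whose intervals overlapped were the proliferating and pDC-like cells of the mutant in nuclear share and the proliferating and cDC2-like cells of WT in mitochondrial share.

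**Figure D1:**
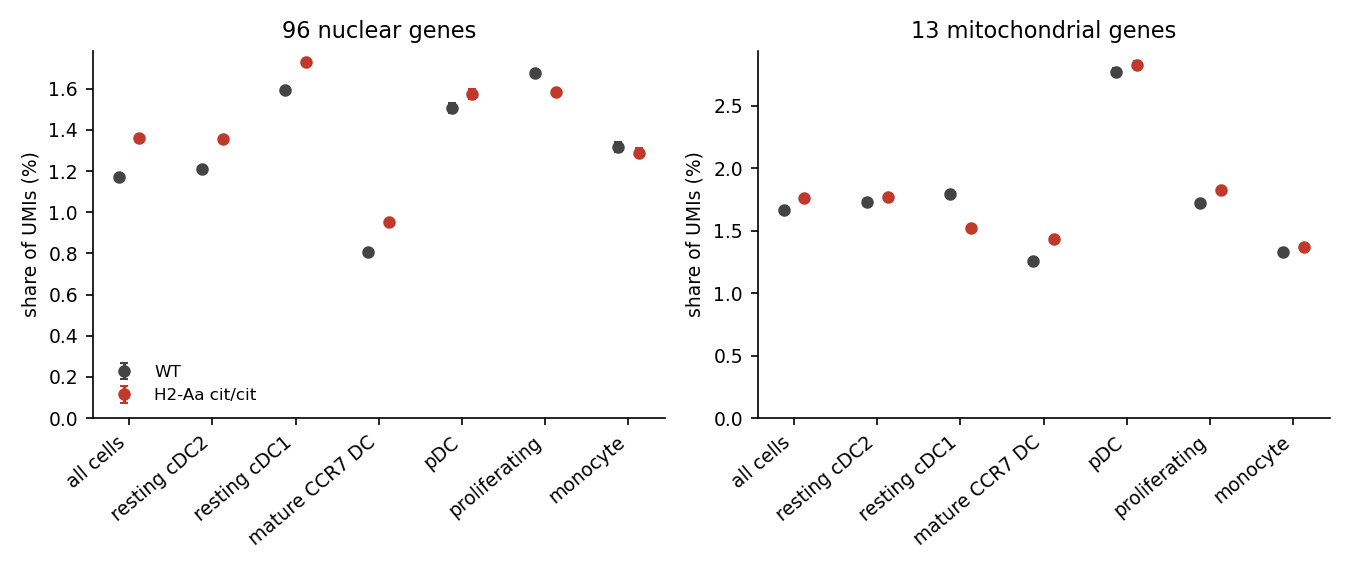
Share of UMIs (%) taken by the 96 nuclear genes (left) and the 13 mitochondrial genes (right) over all cells and in each marker-gated class, with points for WT (dark) and H2-Aa cit/cit (red) and bars for 95% Clopper-Pearson intervals of counting error. Mature CCR7-like DCs have the lowest nuclear share in both libraries (0.808% and 0.955%), and pDC-like cells the highest mitochondrial share (2.77% and 2.82%).

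The widest differences in the nuclear to mitochondrial balance lay within classes, between cells with little and with much ribosomal protein RNA. In cDC2-like cells, 1021 of 2421 WT cells (42.2%) and 1433 of 5594 mutant cells (25.6%) had under 10% ribosomal protein UMIs. In these cells the nuclear share was 0.459% in WT and 0.513% in the mutant, against 1.43% and 1.46% in the cells with at least 10%. That is 3.12-fold and 2.85-fold lower, or log2 ratios of -1.64 and -1.51. The mitochondrial share went the other way, at 2.37% and 3.07% against 1.54% and 1.60%, which is 1.54-fold and 1.92-fold higher. The mitochondrial to nuclear ratio was therefore 5.17 and 5.99 in cells with little ribosomal protein RNA, and 1.07 and 1.09 in the others.

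Counted per cell, both groups of genes were lower in the cells with little ribosomal protein RNA, but not to the same extent. The median cDC2-like cell of this kind held 12 nuclear and 69 mitochondrial member UMIs in WT and 11 and 81 in the mutant, against 117 and 130 in WT and 100 and 111 in the mutant in the other cells. Their median depth was 3060 and 2439 UMIs against 8570 and 6992, and the nuclear retained RNAs Malat1 and Neat1 took 3.10% and 3.14% of their UMIs against 1.99% and 1.82%. Depth, ribosomal protein RNA and nuclear retained RNA thus moved together with the member shares, and their part in the result was not tested. With each cell thinned to 1500 UMIs the log2 ratios were -1.74 and -1.56 for the nuclear share and 0.72 and 1.05 for the mitochondrial share. With ribosomal protein UMIs taken out of the denominator they were -1.89 and -1.77, and 0.38 and 0.68.

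Along the whole range of ribosomal protein share the nuclear and mitochondrial genes followed different courses. The nuclear share of cDC2-like cells climbed from 0.318% in WT and 0.329% in the mutant in cells with under 3% ribosomal protein UMIs to 1.14% and 1.10% at 10 to 15% and 1.71% and 1.70% at 25 to 30%. In every bin under 30% the libraries differed by less than 0.1 percentage points. At 30% or more (73 WT and 163 mutant cells) they were farther apart, with nuclear shares of 2.39% in WT and 2.07% in the mutant. The mitochondrial shares of that bin were 2.09% and 1.86%. The mitochondrial share was highest at 3 to 5%, with 2.92% in WT and 3.49% in the mutant, and lay between 1.39% and 1.63% from 10 to 30%. At 5 to 10% the libraries were farthest apart, with 1.61% in WT and 2.58% in the mutant. The limit of 10% did not fall in an empty range: 189 WT and 494 mutant cells lay at 5 to 10%, and 332 and 578 at 10 to 15%. The cells were sparser there than on either side, with 444 and 720 in the narrower bin of 3 to 5% and 539 and 1365 at 15 to 20%. Median depth was 3334 and 1964 UMIs at 5 to 10% and 7860.5 and 6361.5 UMIs at 10 to 15%. Across single cDC2-like cells the Spearman correlation of ribosomal with nuclear share was 0.90 in WT (2421 cells) and 0.83 in the mutant (5594 cells), and that of mitochondrial with nuclear share was -0.17 and -0.22. The shares of a cell have one total in common and the cells of a library one source, so these are descriptions.

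**Figure D2:**
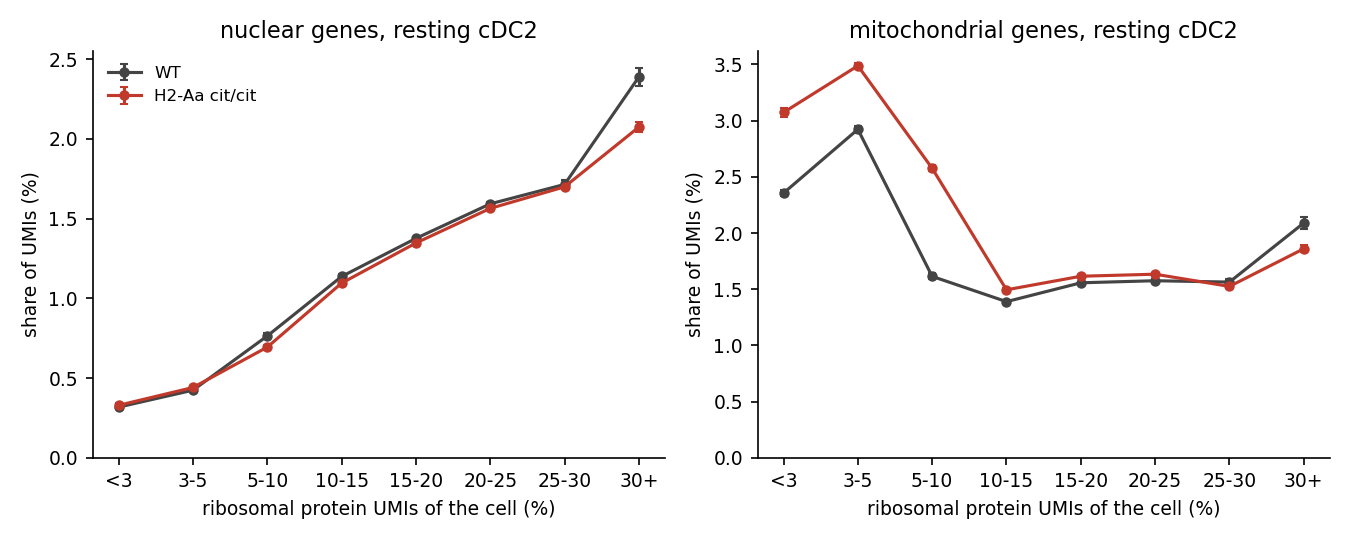
Share of UMIs (%) taken by nuclear (left) and mitochondrial (right) respiratory chain genes in resting cDC2-like cells, in 8 bins of each cell's ribosomal protein share (%), with lines for WT (dark) and H2-Aa cit/cit (red) and bars for 95% counting intervals. The nuclear share climbs with the ribosomal share in both libraries, while the mitochondrial share peaks at 3 to 5% (2.92% and 3.49%) and is nearly level from 10 to 30%.

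The lower nuclear share was spread over the members and not carried by a few of them. A gene was called higher when its CPM was at least 25% higher and lower when it was at least 20% lower, which is 0.32 either way on the log2 scale. In WT, 78 of the 85 nuclear members with a mean of at least 20 CPM were called lower in the cells with little ribosomal protein RNA, where 25% of all genes were, and in the mutant 77 of 84, where 24.2% of all genes were. By at least 2-fold, 69 and 68 were lower, against 14.7% and 13.3% of all genes. Called higher were 3 nuclear members in each library, against 55.7% and 56.5% of all genes. The median log2 ratio was -1.78 and -1.66 for nuclear members and 0.45 and 0.47 for all other genes. Of the mitochondrial genes, 11 of 13 in WT and 13 of 13 in the mutant were called higher.

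By complex, the summed nuclear genes of complexes III, IV and V were lower by 1.75, 1.90 and 1.79 on the log2 scale in WT and by 1.55, 1.73 and 1.63 in the mutant. Complex I had -1.44 and -1.37, and complex II -0.44 and -0.40. Complex II thus stood nearest to no difference in both libraries. Its largest subunit, Sdha, was at 98.7 CPM in the other cells and 113 CPM in the cells with little ribosomal protein RNA in WT, and at 93.3 and 118 CPM in the mutant.

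Among single genes chosen after their values were seen, Ndufs8, an iron-sulfur subunit of complex I, was lowest. Ndufs8 was at 75.0 CPM in the other cells and 12.2 CPM in the cells with little ribosomal protein RNA in WT, a log2 ratio of -2.61, and at 75.6 and 13.04 CPM in the mutant, a log2 ratio of -2.53. Atp5e stood at 571 and 127 CPM in WT, a log2 ratio of -2.17, and at 548 and 134 CPM in the mutant, a log2 ratio of -2.03. Ndufs4, an accessory subunit of complex I that is mutated in a form of Leigh syndrome, went the other way, with 119 and 161 CPM in WT (log2 ratio 0.43, interval 0.29 to 0.57) and 124 and 146 CPM in the mutant (0.23, interval 0.10 to 0.35). Ndufs1, the largest subunit of complex I, did too, with 42.8 and 53.7 CPM in WT (0.33) and 38.9 and 67.4 CPM in the mutant (0.79). The remaining members called higher were Sdhaf3 in WT (0.60), and Ndufaf2 (0.53) and Sdha (0.34) in the mutant.

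The members that were higher are long genes. Ndufaf2 spans 155909 bases, Ndufs4 100464, Sdhaf3 86976, Ndufs1 33238 and Sdha 28027, whereas Ndufs8 spans 3912 bases and Atp5e 3034. Over all measured nuclear members the Spearman correlation of the log2 ratio with gene span was 0.61 in WT (85 genes) and 0.56 in the mutant (84 genes), and with exon bases 0.53 and 0.43. It is a correlation across genes, which are not replicates, and whether intronic reads were counted is not given in the sources used here.

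The mitochondrial genes also differed among themselves in these cells. mt-Cytb, the complex III subunit on mitochondrial DNA, had the highest log2 ratio, 0.79 in WT (1471 CPM in the other cells, 2548 CPM in those with little ribosomal protein RNA) and 1.13 in the mutant (1392 and 3041 CPM). mt-Co1 had 0.45 (2951 and 4041 CPM) and 0.78 (3070 and 5254 CPM). mt-Atp8 was lowest, at -0.05 (27.0 and 26.2 CPM) and 0.43 (22.2 and 29.9 CPM). The remaining genes lay in between in both libraries.

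The same opposition was seen in most other classes, with mature DCs as the exception when cells were split at 10%. The nuclear share was lower in cells with under 10% than in those with at least 10% ribosomal protein UMIs in all 6 classes and both libraries. Its log2 ratios were -1.60 and -1.49 in cDC1-like cells, -1.24 and -1.47 in pDC-like cells, -1.18 and -1.24 in proliferating cells, -0.80 and -0.75 in mature DCs and -0.61 and -0.81 in monocyte-like cells. The mitochondrial share was higher in 5 classes, from 0.21 in proliferating and monocyte-like cells of WT to 1.74 in cDC1-like cells of the mutant. In mature DCs it was lower, by 0.33 and 0.13 on the log2 scale. Most mature DCs with under 10% lay at 5 to 10% (647 of 1123 and 366 of 528), where it was 1.07% and 1.23%. Of the cDC2-like cells with under 10%, 189 of 1021 and 494 of 1433 lay there. In mature DCs it was 1.14% and 1.76% at 3 to 5% and 1.46% and 1.85% under 3%. With at least 10% it was 1.43% and 1.49%, so the direction in mature DCs varied with the bin. The cDC1-like, pDC-like and monocyte-like values rest on 10 to 70 cells with little ribosomal protein RNA per library.

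Mature CCR7-like DCs, the migratory state that DCs enter on activation, had fewer respiratory chain UMIs than cDC2-like cells. Over all cells of the classes the nuclear share was 1.50-fold lower in WT and 1.42-fold lower in the mutant, and the mitochondrial share 1.38-fold and 1.24-fold lower. Mature DCs also had less ribosomal protein RNA, 9.31% and 11.7% of UMIs against 15.5% and 18.7%, and more Malat1 and Neat1, 6.47% and 5.17% against 2.24% and 1.98%. Among cells with at least 10% ribosomal protein UMIs the nuclear share was 1.09% against 1.43% in WT and 1.16% against 1.46% in the mutant, log2 ratios of -0.39 and -0.34. The mitochondrial share then differed by -0.10 and -0.11. These mature DCs still had less ribosomal protein RNA, 14.1% and 15.3% of UMIs against 18.9% and 20.5%. At 10 to 15% their nuclear share was 0.973% against 1.14% in WT and 0.993% against 1.10% in the mutant. At 15 to 20% it was 1.22% against 1.38% and 1.29% against 1.35%. At 25 to 30% it was higher, 1.92% against 1.71% and 1.78% against 1.70%, in 23 and 15 mature DCs. At 20 to 25% and at 30% or more the libraries differed in direction. Among all cells with under 10% the order of the nuclear share was the reverse. It was 0.625% in mature DCs against 0.459% in cDC2-like cells of WT and 0.687% against 0.513% in the mutant, log2 ratios of 0.45 and 0.42. The mitochondrial share was lower in mature DCs by 1.06 and 1.18. The mature DCs with under 10% had more ribosomal protein RNA than such cDC2-like cells, 6.18% and 6.78% of UMIs against 4.03% and 4.86%. Under 3% their nuclear share was 0.313% against 0.318% in WT and 0.317% against 0.329% in the mutant. At 3 to 5% it was 0.477% against 0.424% and 0.489% against 0.441%. At 5 to 10% it was 0.727% against 0.764% and 0.765% against 0.694%. The part of this mix in the reversed order was not tested. Malat1 and Neat1 took 7.44% and 6.73% of UMIs in mature DCs with under 10% against 3.10% and 3.14% in such cDC2-like cells, and 4.99% and 3.99% against 1.99% and 1.82% with at least 10%, and their part in the result was not tested. Of the mature DCs, 7 in WT and 0 in the mutant also had the markers of cDC1-like cells.

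In the cells with at least 10% ribosomal protein UMIs, 61 of 84 nuclear members were called lower in mature DCs of WT, where 45.1% of all genes were, and 58 of 85 in the mutant, where 39.5% of all genes were. Only 2 members were higher in each library, Sdhaf1 and Sdhaf2, where 23.3% and 22.6% of all genes were. The median log2 ratio was -0.54 and -0.44, against -0.24 and -0.16 for all other genes. By complex, the summed nuclear genes of complex I had -0.62 and -0.47, complex V -0.42 and -0.38, complex III -0.28 and -0.21 and complex IV -0.24 and -0.27. Complex II, with 0.14 and 0.23, was above 0. The mitochondrial genes of complex IV had 0.01 and -0.09.

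Complex II stood apart through Sdhaf1, an assembly factor that protects the iron-sulfur clusters of Sdhb. Among these cells Sdhaf1 was at 50.9 CPM in cDC2-like cells and 171 CPM in mature DCs of WT (622 and 870 UMIs, log2 ratio 1.75, interval 1.60 to 1.90) and at 45.8 and 169 CPM in the mutant (1437 and 558 UMIs, 1.89, interval 1.74 to 2.03). Sdhaf2, which attaches the flavin to Sdha and was named, like Sdhc and Sdhd, after its values were seen, was at 32.8 and 47.2 CPM in WT (0.52, interval 0.29 to 0.76) and at 32.7 and 52.8 CPM in the mutant (0.69, interval 0.45 to 0.92). The 4 subunits themselves were lower in mature DCs in both libraries, Sdha by 0.22 and 0.20 on the log2 scale, Sdhb by 0.66 and 0.58, Sdhc by 1.12 and 0.75 and Sdhd by 0.26 and 0.53. The interval for Sdhd in WT reached 0.00. The assembly factor and the subunits it serves thus differed in direction. Sdhaf1 has 1 overlapping gene annotated on the opposite strand, E130208F15Rik. Over all cells Sdhaf1 stood at 72.4 CPM in WT and 51.3 CPM in the mutant (log2 ratio -0.50), where mature DCs made up 22.2% and 9.29% of the cells, and the part of that in the difference was not tested.

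At the other end, Ndufa6, an accessory subunit of complex I, was at 164 CPM in cDC2-like cells and 69.8 CPM in mature DCs of WT over all cells of the classes (log2 ratio -1.24), and at 209 and 94.0 CPM in the mutant (-1.15). Ndufb8 had log2 ratios of -1.18 in WT and -0.80 in the mutant, and Ndufa8 of -1.15 and -1.06. With the limit of 10% ribosomal protein UMIs applied, Ndufa6 had -1.06 and -0.99, Ndufb8 -0.89 and -0.58 and Ndufa8 -1.01 and -0.92. Ndufaf7, a methyltransferase of complex I assembly named after its values were seen, had the lowest ratios under that limit, -2.01 and -1.92, from 47 and 32 UMIs in mature DCs. Cox5a (0.23 and 0.10), Cox4i1 (0.00 and -0.04) and Ndufs4 (0.00 and 0.03) were close to level.

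**Figure D3:**
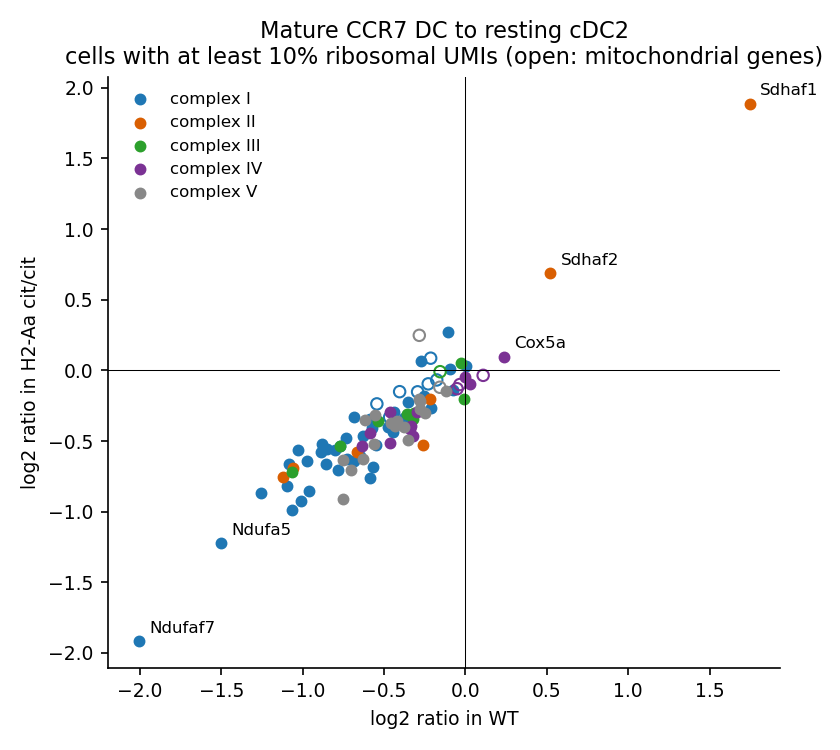
log2 ratio of CPM in mature CCR7-like DCs to resting cDC2-like cells for each measured member in WT (horizontal axis) and H2-Aa cit/cit (vertical axis), over cells with at least 10% ribosomal protein UMIs, coloured by complex, with mitochondrial genes as open circles. Most members lie below 0 on both axes, and Sdhaf1 (1.75 and 1.89) and Sdhaf2 (0.52 and 0.69) lie apart from them.

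pDC-like cells, the type known for interferon production, differed from cDC2-like cells mainly in their mitochondrial genes. The mitochondrial share was 1.60-fold higher than in cDC2-like cells in WT and 1.59-fold higher in the mutant, and the nuclear share 1.24-fold and 1.16-fold higher. Among cells with at least 10% ribosomal protein UMIs the log2 ratios were 0.81 and 0.71 for the mitochondrial and 0.11 and 0.16 for the nuclear share. Of the mitochondrial genes, 12 of 13 in WT and 12 of 12 measured in the mutant were called higher, against 31.2% and 27.8% of all genes. Of the nuclear members, 18 of 85 and 21 of 85 were, a share below that of all genes. Called lower were 5 and 4 of 85 nuclear members, against 25.4% and 23.9% of all other genes. The median log2 ratio of the nuclear members was 0.14 and 0.16, against 0.05 in both libraries for all other genes. The 102 and 124 pDC-like cells also held genes of other lists: the monocyte list summed to 1383 and 1397 CPM in them against 420 and 415 CPM in cDC2-like cells, with 6 of 9 and 9 of 9 of its genes detected, the plasma cell list to 978 and 710 CPM against 123 and 136 CPM, with 5 of 7 detected in both, and the T cell list to 320 and 219 CPM against 26.9 and 21.4 CPM, with 3 of 9 and 4 of 9 detected. Ly6c2, of the monocyte list, was itself among the 10 leading genes of pDC-like cells in both libraries. Cd8b1, of the T cell list, was among the 10 leading genes of WT pDC-like cells outside the pDC marker list. The sums therefore do not by themselves mark transcripts of other cells. The part of such transcripts in the result was not tested.

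Among these pDC-like cells with at least 10% ribosomal protein UMIs, mt-Co1, the catalytic subunit of complex IV, was at 2951 CPM in cDC2-like and 5760 CPM in pDC-like cells of WT (log2 ratio 0.96, interval 0.92 to 1.005) and at 3070 and 5339 CPM in the mutant (0.80, interval 0.76 to 0.84). mt-Nd4 was at 936 and 1893 CPM in WT (1.02) and at 872 and 1691 CPM in the mutant (0.95). mt-Nd4l, which it overlaps, had 1.06 and 1.08, mt-Atp8 1.04 and 0.91, mt-Nd5 0.99 and 0.86 and mt-Cytb 0.64 and 0.63. All but mt-Nd6 were thus higher in pDC-like cells of both libraries. mt-Nd6 had 32 UMIs in WT pDC-like cells (0.17, interval -0.41 to 0.69) and 15 in the mutant (-0.38, interval -1.22 to 0.35), so that no difference in either direction was detectable at this depth.

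Of the nuclear genes of at least 50 CPM, Ndufs5, an accessory subunit of complex I, was at 86.8 CPM in cDC2-like and 161 CPM in pDC-like cells of WT over all cells of the classes (log2 ratio 0.89) and at 97.8 and 159 CPM in the mutant (0.70). Uqcr11 was at 99.97 and 183 CPM in WT (0.87) and at 110.2 and 164 CPM in the mutant (0.57). Ndufc1, another accessory subunit, had 0.80 and 0.49. At the low end, Ndufa10 had -0.32 (interval -0.75 to 0.09) in WT and 0.30 (interval -0.06 to 0.64) in the mutant, so that the libraries had opposite signs. Ndufc2 had -0.20 and -0.11, and Cox7a2l had -0.05 and -0.13. Cox7a2, the paralog of Cox7a2l, had 0.49 and 0.34.

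Between the genotypes, the nuclear genes stood higher in the mutant over all cells, the library with fewer cells of little ribosomal protein RNA. The nuclear share was 1.16-fold higher (log2 ratio 0.22) and the mitochondrial share 1.06-fold higher (0.08). Of 85 nuclear members, 25 were called higher, where 13.2% of all genes were, and 1 was lower, where 14.1% were. Their median log2 ratio was 0.25, against 0.01 for all other genes. None of the 13 mitochondrial genes was called. By complex, 18 of 42 measured nuclear genes of complex I were among those higher, 2 of 8 of complex III, 2 of 11 of complex IV, 2 of 17 of complex V and 1 of 7 of complex II, to which the 1 that was lower, Sdhaf1, also belongs.

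Among cells with at least 10% ribosomal protein UMIs the nuclear share was 1.47% in WT and 1.50% in the mutant (log2 ratio 0.03) and the mitochondrial share 1.62% and 1.60% (-0.02). Among cells with under 10% the nuclear log2 ratio was 0.03 too, but the mitochondrial share was 1.74% in WT and 2.66% in the mutant, 1.53-fold higher (0.62). With at least 10%, 1 nuclear member was higher (Ndufaf4) and 1 was lower (Sdhaf1), where 7.4% and 7.8% of all genes were. With the WT mix of 8 ribosomal bins applied to the mutant, the log2 ratio was -0.05 for the nuclear and 0.23 for the mitochondrial share. The direction of the nuclear difference over all cells therefore turned with the mix of ribosomal bins. It did not turn with the limit of 10% or with the WT mix of classes.

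In cDC2-like cells, the class with the most cells, the genotypes were close over the whole class and with at least 10% ribosomal protein UMIs. The nuclear share was higher by 0.16 on the log2 scale (interval 0.15 to 0.17) and the mitochondrial share by 0.04 (interval 0.03 to 0.04), and with at least 10% ribosomal protein UMIs by 0.03 and 0.06. With under 10% they were higher by 0.16 and 0.37, so the mitochondrial share was farther apart in those cells. Of 85 nuclear members, 4 were called higher and 0 lower, where 5.6% and 8.21% of all genes were. With the limit, 0 of 85 were higher or lower, where 5% and 4.34% of all genes were. The summed nuclear log2 ratios of complexes I, III, IV and V were 0.17, 0.16, 0.18 and 0.15 over all cDC2-like cells and 0.05, 0.02, 0.04 and 0.02 with the limit. Complex II had -0.01 and -0.06.

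Atp5g1, one of 3 genes for the c subunit of the ATP synthase rotor, had the highest ratio in cDC2-like cells, with 141 CPM in WT and 190 CPM in the mutant (log2 ratio 0.42, interval 0.36 to 0.49, and 0.27 with the limit). Its paralogs, which encode the same mature protein, stood at 338 and 395 CPM for Atp5g2 (0.22) and 90.4 and 97.2 CPM for Atp5g3 (0.10). Atp5g1 was thus the most different of the 3 in this class. Ndufb11 and Ndufa11, both in the membrane arm of complex I, had 0.39 and 0.35, and 0.24 and 0.19 with the limit. The lowest of at least 50 CPM were Sdha (-0.08), Ndufa3 (-0.04) and Ndufs4 (-0.02), none of which had an interval clear of 0. With the limit Ndufa3 had -0.16 (interval -0.24 to -0.08).

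**Figure D4:**
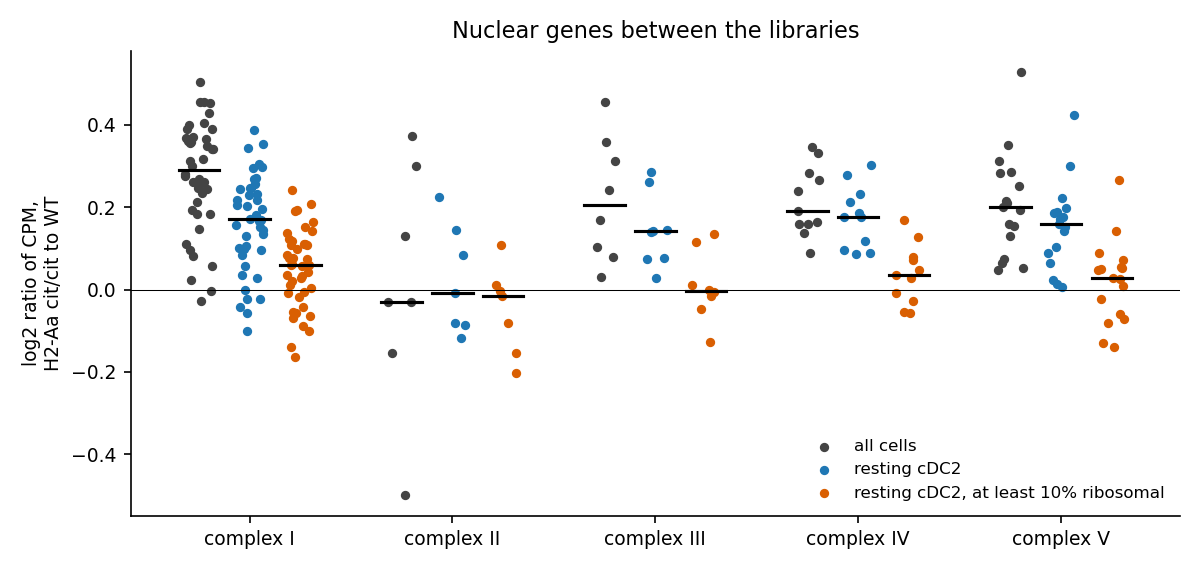
log2 ratio of CPM in H2-Aa cit/cit to WT for each measured nuclear member, by complex, over all cells (dark), in resting cDC2-like cells (blue) and in resting cDC2-like cells with at least 10% ribosomal protein UMIs (orange), with each point 1 gene and each bar the median. The medians over all members move from 0.25 to 0.16 to 0.03 in that order.

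Within the mitochondrial genes of cDC2-like cells the complexes differed in sign. The complex IV genes mt-Co3 (log2 ratio 0.15, 3195 CPM in WT and 3557 in the mutant), mt-Co2 (0.09, 2790 and 2980) and mt-Co1 (0.06, 3199 and 3324) were higher in the mutant. The complex I genes other than mt-Nd3 (0.08) were lower, from -0.06 for mt-Nd2 to -0.35 for mt-Nd6 (32.6 and 25.6 CPM), the 1 mitochondrial gene called, and mt-Cytb was at -0.12. Summed by complex, the mitochondrial log2 ratios were -0.09 for complex I, -0.12 for III, 0.10 for IV and 0.05 for V.

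cDC1-like cells, the type specialised in cross-presentation, were the class of the 6 in which the mitochondrial share was lower in the mutant over all cells of the class. The mitochondrial share was 1.80% in WT and 1.52% in the mutant, a log2 ratio of -0.24 (interval -0.25 to -0.23), while the nuclear share was 1.59% and 1.73% (0.12, interval 0.11 to 0.13). The mitochondrial to nuclear ratio was 1.13 and 0.882. Among cells with at least 10% ribosomal protein UMIs (397 and 501 cells) the log2 ratios were -0.22 and 0.05, and pDC-like cells were then lower in mitochondrial share as well (-0.05). The 70 and 35 cDC1-like cells with under 10% went the other way, with a mitochondrial share of 2.83% in WT and 4.86% in the mutant (0.78, interval 0.74 to 0.82). The WT cells had a median of 11649 UMIs and 18.9% ribosomal protein UMIs, and the mutant cells 14801 UMIs and 21.3%, so depth and ribosomal share moved with the difference.

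The lower mitochondrial share was seen in the ribosomal bins from 15% upwards and in none of those below. It was 1.82% in WT and 1.48% in the mutant at 15 to 20%, 1.70% and 1.45% at 20 to 25%, 1.68% and 1.40% at 25 to 30% and 1.86% and 1.48% at 30% or more. At 10 to 15% it was 1.47% and 1.55%, in the other direction. It was higher in the mutant also under 3% (3.44% and 5.47%), at 3 to 5% (5.35% and 5.73%) and at 5 to 10% (1.67% and 4.03%), bins that held 17 to 35 WT and 6 to 15 mutant cells. With the WT mix of those bins that held at least 20 cells in both libraries the log2 ratio was -0.19. That mix left out all bins under 10%, in which the mutant was higher, so it does not show the direction with them included. With each cell of the class thinned to 1500 UMIs the log2 ratio was -0.19 too.

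All 13 mitochondrial genes had log2 ratios below 0 in cDC1-like cells, and 7 were called lower, where 21.9% of all genes were. The 7 were mt-Atp8 (33.4 CPM in WT and 17.3 in the mutant, -0.95), mt-Nd4l (93.5 and 62.2, -0.59), mt-Nd2 (667 and 467, -0.51), mt-Cytb (1706 and 1216, -0.49), mt-Nd5 (209 and 158, -0.40), mt-Nd1 (1330 and 1016, -0.39) and mt-Nd4 (933 and 714, -0.39). The complex IV genes were closest to level, with mt-Co1 at 3414 and 3244 CPM (-0.07, interval -0.10 to -0.05), mt-Co2 at -0.16 and mt-Co3 at -0.16. mt-Atp6 had -0.29, mt-Nd3 -0.27 and mt-Nd6 -0.20, with an interval from -0.52 to 0.12. Summed by complex, the mitochondrial log2 ratios were -0.41 for I, -0.49 for III, -0.13 for IV and -0.30 for V. Complex IV genes thus had the highest of the 4 sums in cDC1-like and in cDC2-like cells alike.

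**Figure D5:**
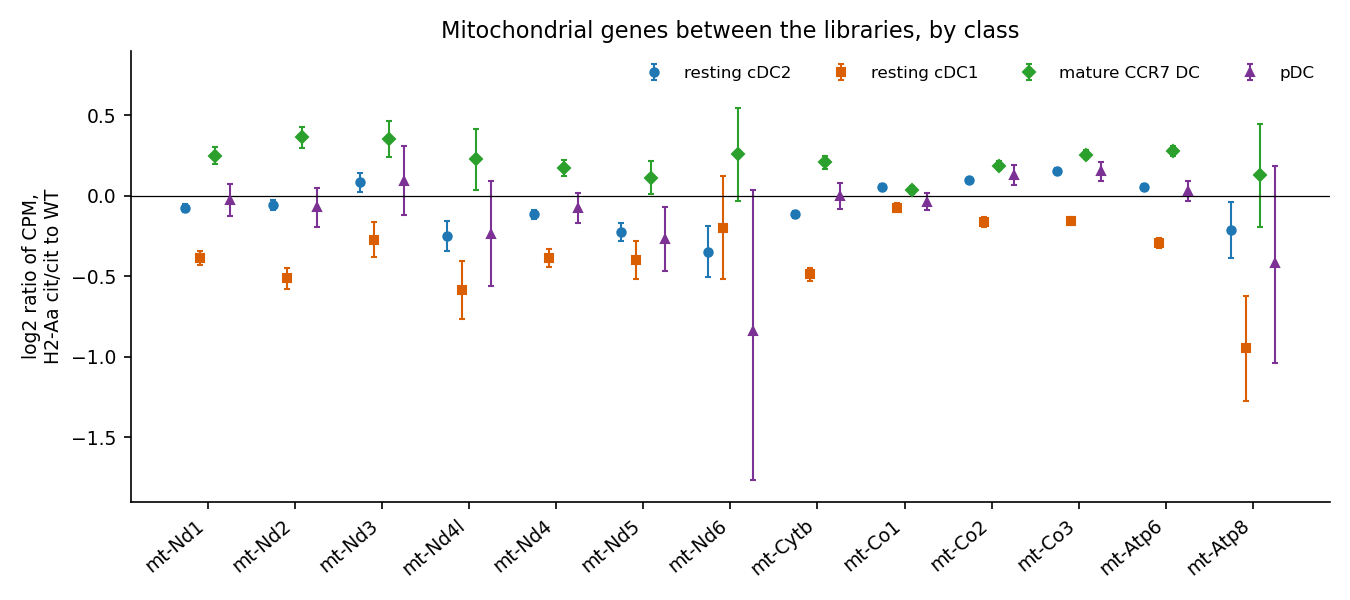
log2 ratio of CPM in H2-Aa cit/cit to WT for each of the 13 mitochondrial genes in resting cDC2-like, resting cDC1-like, mature CCR7-like and pDC-like cells, with bars for 95% counting intervals. The cDC1-like points all lie below 0, from -0.95 for mt-Atp8 to -0.07 for mt-Co1, and the mature DC points all lie above it, mt-Co1 nearest to it at 0.03 and below it with median ratio scaling (-0.02).

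The nuclear genes of cDC1-like cells lay mostly above 0, with 65 of 86 measured above and 21 below and a median log2 ratio of 0.15, against -0.05 for all other genes. Of the 86, 20 were called higher and 2 lower in the mutant, where 17.8% and 21.9% of all genes were, and with at least 10% ribosomal protein UMIs 17 were higher and 4 lower, where 17.4% and 17.7% were. The share of members higher (23.3%, and 19.8% with the limit) was thus nearer to that of all genes than the share lower (2.33%, and 4.65%), which was below it. A pair of complex III subunits stood at the ends among members of at least 50 CPM. Uqcrq, a small subunit beside mt-Cytb, stood at 208 CPM in WT and 391 CPM in the mutant (log2 ratio 0.91, interval 0.81 to 1.01). Uqcrh was at 417 and 289 CPM (-0.53, interval -0.61 to -0.44). With the limit of 10% they had 0.85 and -0.60, so both differences were there in either set of cells. In cDC2-like cells neither was called. Over all cells Uqcrh was not called (0.08), but Uqcrq was called higher. It stood there at 143 CPM in WT and 196 CPM in the mutant (0.46, interval 0.41 to 0.50). A processed pseudogene is annotated on the opposite strand within Uqcrh, and whether it has any part in these counts was not tested.

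Next to Uqcrq, Ndufs3, a core subunit of complex I, was at 52.5 and 77.5 CPM (0.56) and Atp5g1 at 240 and 346 CPM (0.53), beside 0.10 for Atp5g2 and 0.09 for Atp5g3. Atp5g1 was thus among the 3 highest members of at least 50 CPM in cDC2-like, cDC1-like and pDC-like cells, and had the highest ratio of all nuclear members over all cells (138 and 199 CPM, 0.53). The low end held Cox6c, a complex IV subunit, at 458 and 371 CPM (-0.30) and Atp5e at 672 and 562 CPM (-0.26). The second member called lower was Sdhaf4, an assembly factor named after its values were seen, at 36.6 and 21.9 CPM (-0.74, interval -1.04 to -0.45).

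In mature CCR7-like DCs both groups of genes stood higher in the mutant over all cells of the class, the nuclear share by 0.24 and the mitochondrial share by 0.19 on the log2 scale. With at least 10% ribosomal protein UMIs the differences were 0.08 and 0.05. Of 79 nuclear members, 29 were called higher and 0 lower, where 18.2% and 11.4% of all genes were, and with the limit 9 of 80 were higher and 2 lower, where 20% and 10.1% were. The count higher was thus above that of all genes over the whole class and below it with the limit. Of the members of at least 50 CPM, Ndufb10 stood at 46.8 CPM in WT and 75.2 CPM in the mutant (0.69, and 0.48 with the limit), Ndufb8, which shares its strand with the overlapping gene Gm20538, at 58.9 and 90.0 CPM (0.61, and 0.41) and Uqcr11 at 46.9 and 66.9 CPM (0.51, and 0.23). Uqcrfs1, the Rieske iron-sulfur subunit of complex III (-0.01), Cox7c (0.02) and Ndufa1 (0.03) were lowest among them. All 13 mitochondrial genes were above 0, from 0.03 for mt-Co1, which had -0.02 when scaled by the median ratio of all genes, to 0.36 for mt-Nd2, and 2 of them, mt-Nd2 and mt-Nd3 (0.35), were called higher. With the limit 9 were above 0 and none was called.

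In pDC-like cells the genotypes differed little, with the nuclear share higher by 0.06 (interval 0.03 to 0.10) and the mitochondrial share by 0.03 (interval 0.00 to 0.05) on the log2 scale. The latter was -0.05 with at least 10% ribosomal protein UMIs. Of 85 nuclear members, 3 were called higher and 4 lower, where 15.2% and 17.3% of all genes were. Of the members of at least 50 CPM, Ndufa10 was at 48.0 and 78.0 CPM (51 and 72 UMIs, 0.70, interval 0.16 to 1.247), Atp5g1 at 180 and 244 CPM (0.44, interval 0.15 to 0.73) and Ndufa6 at 164 and 200 CPM (0.29). Ndufb5 (-0.32), Ndufb11 (-0.28) and Cox6a1 (-0.18) were lowest among them, each with an interval that held 0. Of the mitochondrial genes, mt-Nd6 (35 and 17 UMIs, -0.84, interval -1.77 to 0.04) and mt-Atp8 (60 and 39 UMIs, -0.42, interval -1.04 to 0.19) were called lower, and neither interval was clear of 0. In proliferating cells the nuclear share was lower by 0.08 and the mitochondrial share higher by 0.09, and in monocyte-like cells the values were -0.03 and 0.04.

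The other genes of mitochondrial function gave a partly similar picture, each list being read beside the shares of all genes given for the same comparison. Of the mitochondrial ribosome genes, which translate the 13 mitochondrial mRNAs, 62 were measured over all cells, and 29 were higher and 0 lower in the mutant, with a log2 ratio of their sums of 0.29. With at least 10% ribosomal protein UMIs 2 of 66 were higher and 0 lower, and the sums had 0.12. In cDC2-like cells with little ribosomal protein RNA they had -1.22 in WT and -1.10 in the mutant, and in mature DCs with at least 10% ribosomal protein UMIs -0.67 and -0.50 against cDC2-like cells. A list of carriers and import channels of the mitochondrial membranes also held Hspd1 and Hspe1, which are neither. It had -1.25 and -1.19 in the cells with little ribosomal protein RNA, and -0.45 and -0.50 in mature DCs. The nuclear members and these lists thus had one direction in both contrasts.

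The citric acid cycle genes, which supply the chain with NADH, had -0.24 and -0.22 in the cells with little ribosomal protein RNA and -1.18 and -0.91 in mature DCs, where 8 of 12 measured were lower and 0 higher in both libraries. Of the genes for upkeep and transcription of mitochondrial DNA, 5 of 18 were measured between the genotypes over all cells, with 0 higher or lower. In the cells with little ribosomal protein RNA their sums had -0.04 and 0.01. Of 7 measured there, 4 were higher and 3 lower in WT, and 3 higher and 3 lower in the mutant. The transcriptional regulators of respiration, such as Nrf1, Gabpa and Yy1, had 0.75 and 0.73 there. Of these, 6 of 8 measured were higher in both libraries, where 55.7% and 56.5% of all genes were. The median log2 ratio of all genes other than the members was 0.45 and 0.47 in the same contrast. In cDC1-like cells the upkeep list had a log2 ratio of -0.02 between the genotypes, where the mitochondrial share had -0.24. In pDC-like against cDC2-like cells with at least 10% ribosomal protein UMIs, the upkeep list had 0.28 in WT and -0.003 in the mutant. Tfam, a gene of that list which packages mitochondrial DNA, did not have the same pattern. It was at 30.7 CPM in pDC-like against 28.8 CPM in cDC2-like cells of WT and at 35.9 against 29.3 CPM in the mutant.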

How the data were processed

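CD11c+ splenic DCs of 1 WT and 1 H2-Aa cit/cit library were profiled by droplet 3' single-cell RNA-seq. The authors deposited filtered matrices of UMI counts per gene and cell, not normalized. The submitters' processing notes name Cell Ranger 5.0.1, Seurat and mm10, and the annotation release and the handling of intronic reads are not given in the sources used here. Gene models, coordinates and overlaps were taken from GENCODE vM21 and promoters from RefSeq. The members, lists and settings were chosen with earlier results of these data known.

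Cells with at least 1500 UMIs were thinned to 1500 UMIs for gating only. They were then gated by the number of detected markers: at least 3 for proliferating, 5 for pDC-like, 6 for mature, 4 for cDC1-like, 3 for monocyte-like and 2 for cDC2-like cells, the last with at most 3 mature and 2 cDC1 markers. No doublet caller was run, and leaving out cells over 20000 UMIs was an alternative. Counts were summed per class and given as shares of UMIs with Clopper-Pearson intervals or as CPM, and ratios with exact conditional binomial intervals (normal approximation for the mitochondrial to nuclear ratio), all at 95% and covering counting error only. No pseudocount was added to member ratios. A gene was measured at a mean of 20 CPM in the 2 sums compared and called higher at 25% above or lower at 20% below, since 1 library per genotype allows no test. Percentages of all genes use the same minimum and fold. Genes named were all mitochondrial genes, the 3 most counted nuclear members per complex, the 3 highest and 3 lowest members of at least 50 CPM in the main contrasts, tissue isoforms and paralogs. Others, among them Ndufs8, Ndufs1, Sdhaf2, Sdhaf3, Sdhaf4, Ndufaf2, Ndufaf4 and Ndufaf7, were chosen after their values were seen. The calculations were tested on simulated data. Python 3.11.15, numpy 2.4.6, scipy 1.17.1, pandas 2.3.3 and matplotlib 3.10.9 were used.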

Additional observations from a re-analysis of the deposited data

Results flagged for a closer look

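The mitochondrial share differed between the genotypes in opposite directions in different classes. Over all cells of a class, the log2 ratio of H2-Aa cit/cit to WT was -0.237 in cDC1-like cells, against 0.0359 in cDC2-like cells, 0.192 in mature CCR7-like DCs and 0.0289 in pDC-like cells. Among cells with at least 10% ribosomal protein UMIs it was -0.222 in cDC1-like and -0.0476 in pDC-like cells, against 0.0568 in cDC2-like cells and 0.0538 in mature DCs. In the 70 and 35 cDC1-like cells with under 10% it was 0.778. With 1 library per genotype the difference between classes was not tested. The cDC1-like cells of H2-Aa cit/cit were also deeper, with a median of 14801 UMIs against 11649 in WT, and the part of depth in the result was not tested.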

How the results depend on the processing

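With 1 library per genotype, no value was set against the spread between mice, and genotype and library cannot be told apart. No paired analysis was possible because the labels give 1 library per genotype. All values are log2 ratios, of H2-Aa cit/cit to WT unless 2 classes are named. Of the alternatives to shares and their ratios, 146 stayed within the counting interval, 156 moved further and 13 turned a direction whose interval was clear of 0, which is called reversed here. Of those to counts of members, 57 stayed within 1.5 times and 23 did not. For the named nuclear members in their contrasts and the mitochondrial genes between the genotypes, 328 stayed within the interval, 68 moved further and 4 reversed, all 4 in mature DCs: mt-Co1 (-0.0873), mt-Nd4l (-0.0172) and mt-Nd5 (-0.102) with the ribosomal limit and mt-Co1 (-0.0185) with median ratio scaling. The settings for single genes, the mixes of ribosomal bins, leaving out mature cells with cDC1 markers, the second ribosomal limit and the denominator without ribosomal genes were chosen after seeing the data. The causes were not tested.

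Leaving out cells with under 10% ribosomal protein UMIs gave 0.0323 for the nuclear and -0.0191, a reversal, for the mitochondrial share over all cells. In cDC2-like cells it gave 0.0322, 0.0568 and, reversed, 0.0246 for the nuclear share, the mitochondrial share and their ratio, in cDC1-like cells 0.0509, -0.222 and -0.273, in mature DCs 0.0838 and 0.0538 for the shares, and in pDC-like cells -0.0476, a reversal, for the mitochondrial share and -0.130 for the ratio. Mature against cDC2-like cells then had nuclear ratios of -0.393 in WT and -0.341 in the mutant, and pDC-like against cDC2-like cells mitochondrial ratios of 0.812 and 0.708.

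The WT mix of ribosomal bins gave, over all cells, -0.0490, a reversal, for the nuclear and 0.228 for the mitochondrial share. For the nuclear share, the mitochondrial share and the ratio it gave -0.0362 (reversed), 0.163 and 0.200 (reversed) in cDC2-like cells, -0.0186 (reversed), -0.194 and -0.175 in cDC1-like cells and -0.00117 (reversed), -0.105 (reversed) and -0.104 in pDC-like cells. In mature DCs it gave 0.0453 for the nuclear share and 0.145 (reversed) for the ratio. The WT mix of classes gave 0.108 and 0.0446 for the shares over all cells.

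The mean over cells gave 0.167 and 0.0781 for the shares over all cells. It gave 0.246 for the nuclear share and -0.206 for the ratio in cDC2-like cells, and 0.0656, -0.185 and -0.251 for the shares and ratio in cDC1-like cells, 0.196, 0.0963 and -0.0998 in mature DCs and 0.0290, 0.122 and 0.0932 in pDC-like cells. In monocyte-like cells the mitochondrial share and ratio were -0.0256 and -0.0134 (both reversed). Mature against cDC2-like nuclear ratios were -0.356 and -0.406, and the WT pDC-like mitochondrial ratio was 0.592.

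Thinning to 1500 UMIs gave 0.113 for the mitochondrial share over all cells. It gave 0.239 for the nuclear share and -0.198 for the ratio in cDC2-like cells, and 0.0586, -0.193 and -0.252 for the shares and ratio in cDC1-like cells, 0.200, 0.0954 and -0.105 in mature DCs and 0.0197, 0.0915 and 0.0718 in pDC-like cells. Both pDC-like ratios had the opposite sign to a value (-0.0348) whose interval held 0. The monocyte-like mitochondrial share was -0.0400 (reversed). Mature against cDC2-like nuclear ratios were -0.375 and -0.414, and the WT pDC-like mitochondrial ratio 0.610. cDC2-like cells under against at least 10% ribosomal protein UMIs had nuclear ratios of -1.74 and -1.56 and mitochondrial ratios of 0.722 and 1.05. In that contrast the denominator without ribosomal genes gave -1.89 and -1.77, and 0.382 and 0.681, and a limit of 15% gave -1.02 and -0.925, and 0.304 and 0.508.

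Without cells over 10% mitochondrial, the mitochondrial share over all cells had 0.0895 and the H2-Aa cit/cit mitochondrial ratio of that contrast 0.931. Without cells over 20000 UMIs, the mitochondrial share had 0.0903 over all cells, -0.215 in cDC1-like cells with a ratio of -0.328, 0.179 in mature DCs and 0.00400 in pDC-like cells. The WT nuclear ratio of mature against cDC2-like cells was -0.570 and the WT mitochondrial ratio of pDC-like against cDC2-like cells 0.716.

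Median ratio scaling gave 0.207 and 0.0822 for the nuclear and mitochondrial share in cDC2-like cells, 0.168 and -0.188 in cDC1-like cells and 0.187 and 0.139 in mature DCs. Mature against cDC2-like nuclear ratios were -0.358 and -0.349, and the pDC-like mitochondrial ratio of H2-Aa cit/cit 0.644. It called 11 nuclear members higher in cDC2-like cells in place of 4, and 0 mitochondrial genes lower there and 0 higher in mature DCs in place of 1 and 2. With 1 more marker required, cDC2-like cells had 0.122, 0.0518 and -0.0702 for the shares and ratio, cDC1-like cells 0.140, -0.198 and -0.338, and mature DCs 0.219 for the nuclear share and -0.0281 for the ratio. Mature against cDC2-like nuclear ratios were -0.655 and -0.558, and pDC-like mitochondrial ratios 0.816 and 0.794.

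At 1.5-fold, nuclear members called higher were 0 over all cells (25 at the fold used), 0 in cDC2-like cells (4), 2 in cDC1-like cells (20), 3 in mature DCs (29) and 1 in pDC-like cells (3). Lower were 0 over all cells (1), 1 in cDC1-like cells (2) and 1 in pDC-like cells (4). Mitochondrial genes called lower were 0 in cDC2-like cells (1), 2 in cDC1-like cells (7) and 1 in pDC-like cells (2), and higher 0 in mature DCs (2). With every gene of more than 1 UMI in both libraries counted, 3 nuclear members were lower over all cells, 2 were lower in cDC2-like cells and 6 were higher in pDC-like cells. At a minimum of 50 CPM, 0 mitochondrial genes were lower in cDC2-like cells, 1 nuclear member was lower in cDC1-like cells, 17 were higher in mature DCs, and 0 nuclear and 0 mitochondrial members were lower in pDC-like cells.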

Other observations

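Genes that help assemble the respiratory complexes, cytochrome c and coenzyme Q did not all follow the subunits. The first contrast was cDC2-like cells with under 10% against at least 10% ribosomal protein UMIs. There the list of 33 assembly genes had log2 ratios of its sums of -0.48 in WT and -0.54 in the mutant. The list of 16 cytochrome c and coenzyme Q genes, which also holds the electron carriers Etfa, Etfb and Etfdh, had -0.39 and -0.33. In mature against cDC2-like cells with at least 10% ribosomal protein UMIs they had -0.32 and -0.32, and -0.49 and -0.43. The mitochondrial ribosome genes had 0.23 between the genotypes in cDC1-like cells, with 26 of 67 measured higher and 1 lower in H2-Aa cit/cit beside 17.8% and 21.9% of all genes, where the 13 genes they serve to translate were all below 0.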
